A study of Mus musculus with 12 samples.

Results

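Heat shock proteins and DnaJ cochaperones were followed across the 4 labelled groups of this series. Members were chosen by symbol alone: Hsp followed by a, b, d, e or h and a number, Hsp90 with any ending, Dnaj followed by a, b or c and a number, or Hsf and a number. This rule was met by 76 of the 22317 symbols with counts. They comprise 14 genes of the HSP70 and HSP110 families, 3 HSP90 genes, 2 chaperonin genes, 7 small heat shock protein genes, 4 DNAJA, 12 DNAJB and 25 DNAJC genes, 5 heat shock factors, 3 pseudogenes by name, and Hspb11, which carries a heat shock symbol but encodes the ciliary transport protein IFT25.

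Heat shock proteins bind unfolded or partly folded proteins. HSP70 works in cycles of ATP hydrolysis that DnaJ proteins start and nucleotide exchange factors end, HSP90 completes the folding of kinases and steroid receptors, the HSP60 and HSP10 chaperonin encloses proteins in mitochondria, and small heat shock proteins hold unfolded proteins in solution without ATP. Heat shock factor 1 induces many of the cytosolic members through heat shock elements in their promoters, whereas the members of the endoplasmic reticulum (ER) are induced by the unfolded protein response. Several DnaJ proteins have taken on specialised tasks, such as uncoating clathrin-coated vesicles at synapses.

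The study occluded small vessels of wild-type male BALB/c mice, 8 weeks old, by photothrombosis (PT), in which a dye in the blood is lit by a laser. The group SB2 is labelled brain cortex on day 2 after injury of the skull and SB4 brain cortex on day 4, while BS2 is labelled interparietal bone on day 2 after injury of the brain and BS6 interparietal bone on day 6. Each group has 3 libraries of poly(A) RNA, and all 4 groups come from injured animals, so no comparison with an uninjured control was made. The study's methods describe the 3 libraries of a group as biological replicates, and the labels name no animal for a library.

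The transcripts of SB4 and BS6 fitted their tissue labels, whereas SB2, labelled brain, held bone transcripts and BS2, labelled bone, held brain transcripts. The 8 neuron markers summed to 80.3 to 184 CPM (counts scaled to library size, with TMM factors) in the libraries labelled SB2 and BS6 and to 9991 to 10541 CPM in those labelled SB4 and BS2. The 6 matched osteoblast and osteocyte markers summed to 1192 to 5292 CPM in SB2 and BS6 and to 20.1 to 25.0 CPM in SB4 and BS2, with Sp7, a defining factor of osteoblasts, between 0.334 and 0.649 CPM there. The libraries labelled SB2 and BS6 are therefore called bone-rich here and those labelled SB4 and BS2 brain-rich. Whether the labels of SB2 and BS2 were exchanged could not be settled from the sources used here, so groups are named by their labels. Each change between days within a label was also a change between bone-rich and brain-rich libraries, and the part of the day cannot be told apart from it. Library totals ranged from 14126082 to 18972654 counts. Replicate 2 of BS6 stood apart from its group, with a neutrophil marker sum of 23433 CPM against 1347 and 3237 CPM in the other 2 libraries. In bulk tissue, fewer cells of a type and less RNA per cell cannot be told apart.

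The members took 0.595% to 0.700% of all counts in SB2, 0.854% to 0.895% in SB4, 0.848% to 0.874% in BS2 and 0.407% to 0.464% in BS6, and these ranges did not overlap except between SB4 and BS2. Per kilobase of exons, the only scale on which genes are compared with each other here, Hsp90ab1 was the most abundant member in every group, at 364 ± 20.7 CPM per kilobase in SB2, 515 ± 11.1 in SB4, 496 ± 13.1 in BS2 and 254 ± 21.3 in BS6 (SD, n = 3). The next member differed with the tissue content. In the bone-rich groups it was the ER chaperone Hspa5, at 183 ± 32.9 CPM per kilobase in SB2 and 94.3 ± 11.3 in BS6, followed by the ER chaperone Hsp90b1 at 120 ± 14.8 and 55.8 ± 12.3. In the brain-rich groups it was the cytosolic Hsp90aa1, at 244 ± 15.1 CPM per kilobase in SB4 and 257 ± 11.9 in BS2, followed by the constitutive cytosolic Hspa8 at 109 ± 6.05 and 102 ± 2.04.

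**Figure D1:**
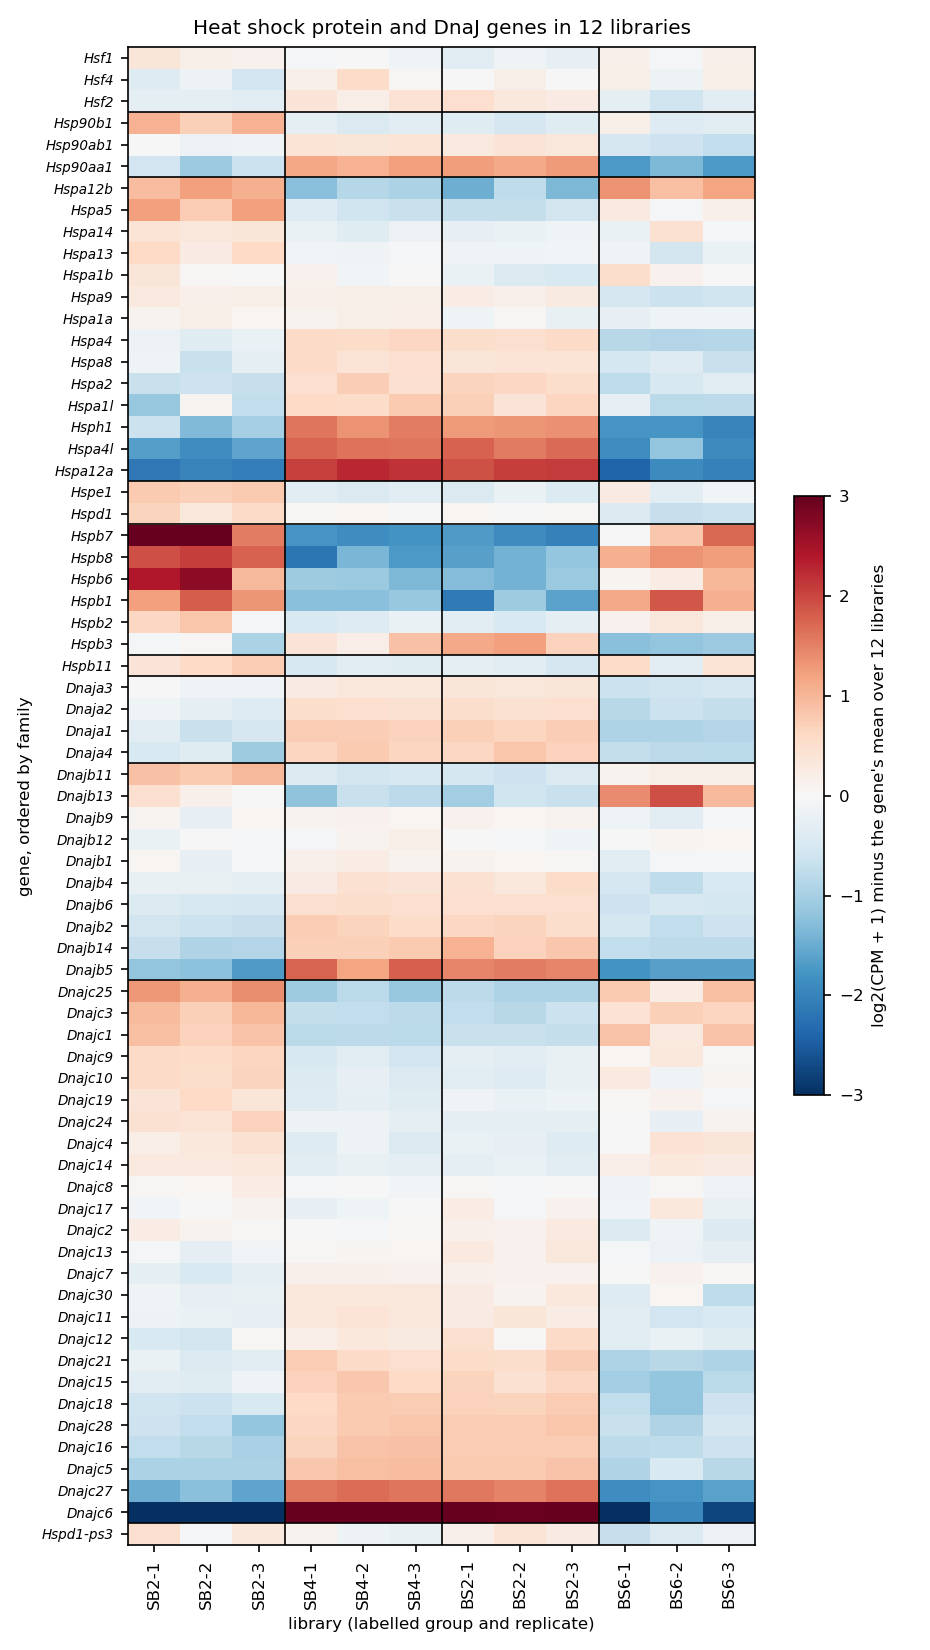
Levels of 69 members with a group mean of at least 1 CPM, in rows ordered by family, over the 12 libraries in columns. Colour gives log2(CPM + 1) minus the mean of that gene over the 12 libraries, from blue (lower) to red (higher), with the scale ending at 3 in either direction. The columns of SB2 resemble those of BS6 and the columns of SB4 those of BS2, and Dnajc6 and Hspb7 show the widest contrast.

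The comparison of SB4 with SB2 asks how transcripts under the brain label changed from day 2 to day 4 after skull PT. The 4 members listed for neurons (Dnajc6, Hspa12a, Dnajc5 and Dnajb2) were all higher in SB4, as were Hspa4l and Dnajc27, while 4 of 5 small heat shock proteins tested and 5 of 8 members of the ER lumen were lower. Calls required an absolute log2 fold change over 1 and a p under 0.05 in the quasi-likelihood test of edgeR after Benjamini-Hochberg adjustment over all genes tested. Of 68 members tested 19 were called higher, a share of 27.9% beside 27.8% of all 17293 genes tested, and 15 were called lower, 22.1% beside 28.6% of all genes. The share called higher was thus that of the transcriptome at large, and the median log2 fold change was 0.22 for members and -0.01 for all genes. By the adjusted p alone, whatever the fold, 35 members (51.5%) were higher beside 41.3% of all genes and 24 (35.3%) lower beside 42.0%. By family, 2 of 4 DNAJA and 7 of 25 DNAJC genes were higher with 4 DNAJC lower, and 5 of 14 HSP70 and HSP110 genes were higher with 2 lower.

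In BS6 against BS2, under the bone label from day 2 to day 6 after brain PT, the directions were turned. Dnajc6, Hspa12a, Dnajc27 and Hspa4l fell, and Hspb7, Hspb1, Hspb8 and Hspa12b rose. Of 69 members tested 9 were called higher, 13.0% beside 29.0% of all 17311 genes tested, and 24 were called lower, 34.8% beside 26.5%. The median log2 fold change was -0.47 for members and 0.02 for all genes, with 25 of 69 values above 0 beside 50.5% of all genes. By the adjusted p alone, 18 members (26.1%) were higher beside 38.2% of all genes and 35 (50.7%) lower beside 36.8%. Over both comparisons, 19 of the 68 members tested in both were higher in SB4 and lower in BS6 (27.9%, beside 24% of all 16953 genes tested in both), and 9 were lower in SB4 and higher in BS6 (13.2% beside 25.2%). A further 5 were called only as lower in BS6 (7.35% beside 2.61%), 6 only as lower in SB4 (8.82% beside 3%), and 29 in neither (42.6% beside 38%). No member was called in the same direction in both comparisons, and few genes were at all, 6 higher in both (0.0354%) and 7 lower in both (0.0413%). The difference between both changes was itself tested over 12 libraries, and of 71 members it was called positive for 32 (45.1%) beside 35.8% of all genes and negative for 21 (29.6%) beside 37.8%. Without BS6 replicate 2, 10 of 70 members were called higher (14.3% beside 28.8% of all genes) and 24 lower (34.3% beside 27.2%) in BS6 against BS2.

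**Figure D2:**
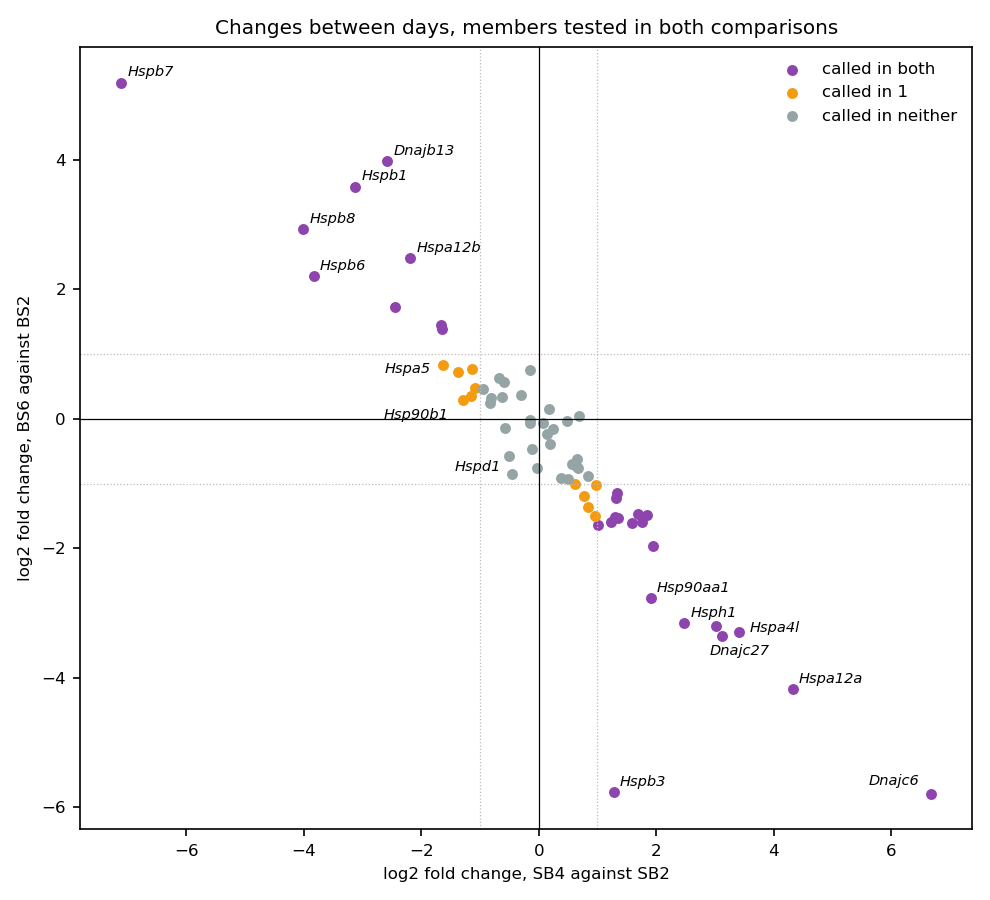
Log2 fold change in SB4 against SB2 (horizontal axis) and in BS6 against BS2 (vertical axis) for the 68 members tested in both, coloured by whether the gene was called in both (28), in 1 (11) or in neither (29). Dotted lines mark an absolute log2 fold change of 1. The called members lie along a falling diagonal from Hspb7 to Dnajc6, and Hspd1 lies below 0 on both axes.

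The HSP90 genes divided by compartment. Hsp90aa1, the stress-inducible cytosolic HSP90 (chr12:110690605-110702728, build mm10, annotation GENCODE M21), was at 293, 202 and 277 CPM in the 3 libraries of SB2, at 971, 896 and 1013 CPM in SB4, at 1030, 957 and 1044 CPM in BS2 and at 131, 171 and 131 CPM in BS6. Every brain-rich library lay above every bone-rich one, and every library of BS6 below every library of SB2. It was higher in SB4 by a log2 fold change of 1.90 ± 0.14 (standard error; edgeR adjusted p = 5.20e-07) and lower in BS6 than in BS2 (-2.77 ± 0.16, edgeR adjusted p = 1.79e-05). Hsp90ab1, the constitutive cytosolic form, had smaller differences of 0.50 ± 0.08 and -0.93 ± 0.13, both with an edgeR adjusted p under 0.05 but below the fold threshold. Hsp90b1, the HSP90 of the ER lumen (chr10:86690209-86705509), was at 518, 416 and 521 CPM in SB2, 206, 185 and 203 CPM in SB4, 196, 176 and 194 CPM in BS2 and 282, 191 and 202 CPM in BS6. The libraries of SB2 stood above all others, and those of BS6 overlapped with the brain-rich ones. The ratio of Hsp90aa1 to Hsp90b1 within a library, which does not depend on library size, was 0.528 ± 0.0397 in SB2 and 0.669 ± 0.216 in BS6 against 4.85 ± 0.149 in SB4 and 5.36 ± 0.101 in BS2 (SD, n = 3).

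Among the HSP70 and HSP110 genes, a pair of related members went in opposite directions. Hspa12a, an atypical HSP70 abundant in brain (chr19:58795750-58943654), was at 15.5, 17.2 and 16.2 CPM in SB2, 302, 347 and 325 CPM in SB4, 272, 306 and 309 CPM in BS2 and 12.7, 18.2 and 16.8 CPM in BS6. Its relative Hspa12b, known for its expression in endothelial cells (chr2:131127280-131146321), was at 37.9, 47.4 and 42.0 CPM in SB2, 7.59, 10.4 and 9.64 CPM in SB4, 6.43, 11.1 and 7.12 CPM in BS2 and 51.8, 37.3 and 45.6 CPM in BS6. Hspa12a was high in the 6 brain-rich libraries and Hspa12b in the 6 bone-rich ones, without overlap, so that the ratio of the first to the second was 0.386 ± 0.0231 in SB2 and 0.367 ± 0.121 in BS6 but 35.6 ± 3.68 in SB4 and 37.7 ± 8.91 in BS2. In SB4 against SB2, Hspa12a was higher by 4.32 ± 0.08 (edgeR adjusted p = 2.55e-12) and Hspa12b lower by a log2 fold change of -2.19 ± 0.13 (edgeR adjusted p = 2.14e-08). The sum of 5 endothelial markers, of which Pecam1, Cdh5, Kdr and Tek were lower in the brain-rich groups and Cldn5 was not (means of 18.5 CPM in SB2, 23.8 CPM in SB4, 19.0 CPM in BS2 and 28.2 CPM in BS6), moved with Hspa12b, at 590 to 623 CPM in SB2 and 568 to 764 CPM in BS6 against 65.2 to 111 CPM in the brain-rich groups, and its part in the difference was not tested.

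The HSP110 genes, nucleotide exchange factors of HSP70, had their higher levels in the brain-rich groups. Hsph1 was at 90.7, 56.4 and 70.2 CPM in SB2, 435, 364 and 412 CPM in SB4, 346, 356 and 369 CPM in BS2 and 41.1, 40.8 and 34.7 CPM in BS6. Hspa4l was at 21.6 to 26.6 CPM in SB2, 249.5 to 273 CPM in SB4, 241 to 278 CPM in BS2 and 20.9 to 35.2 CPM in BS6, with the highest value of BS6 in replicate 2. Their log2 fold changes were 2.48 ± 0.18 and 3.41 ± 0.09 in SB4 against SB2 and -3.16 ± 0.12 and -3.29 ± 0.24 in BS6 against BS2, with edgeR adjusted p of at most 4.41e-05. Hspa4, the third gene of this family, had log2 fold changes of 0.84 ± 0.07 and -1.36 ± 0.09, of which the second alone passed the fold threshold. The constitutive Hspa8 had log2 fold changes of 0.83 ± 0.13 and -0.89 ± 0.12, and Hspa2, known from male germ cells, 1.33 ± 0.11 and -1.15 ± 0.15.

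The classical heat-inducible HSP70 genes were low everywhere. Hspa1a was at 2.75 to 3.06 CPM in SB2, 2.91 to 3.12 CPM in SB4, 2.11 to 2.69 CPM in BS2 and 2.02 to 2.30 CPM in BS6, and Hspa1b at 5.01 to 6.66, 4.68 to 5.53, 3.34 to 4.19 and 4.90 to 7.56 CPM. Neither was called in any of the 4 comparisons between groups of libraries. The log2 fold change of Hspa1b was 0.76 ± 0.24 in BS6 against BS2 (edgeR adjusted p = 0.0244). Over their coding sequences Hspa1a and Hspa1b share 1918 of 1929 aligned bases (99.4%), and they lie 9951 bases apart on chromosome 17, so counts could be divided between them and each value is uncertain. Their promoters are as close: the 250 bases before both starts are identical at 247 positions and hold the same heat shock element 104 bases before the start in the RefSeq table, shown here because it is the same in both copies. The capitals mark the 2 units of the element, on the strand of the genes, from RefSeq on build GRCm38.p6, at chr17:34972248-34972265 for Hspa1a and chr17:34959330-34959347 for Hspa1b.
Hspa1a: tgctgGAAGATTCctggc
Hspa1b: tgctgGAAGATTCctggc

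Heat shock elements were counted in the promoters. The window ran from 250 bases before to 50 bases after the start, and 59 of the 76 members had an entry in the RefSeq promoter table. The 2-unit element, GAANNTTC or TTCNNGAA on either strand, was found in 16 of 59 members (27.1%) and in 17.0% of all 27025 genes with an entry. The 3-unit element, in which GAA, TTC and GAA (or TTC, GAA and TTC) follow each other with 2 free bases between neighbours, which contains the 2-unit element, was found in 4 of 59 (6.78%) and in 0.662% of all genes. The 4 members were Dnajb6, Hsph1, Hspd1 and Hspe1, of which Hspd1 and Hspe1 are counted for the same element. In the 250 bases before the start alone, 3 of 59 (5.08%) held a match, beside 0.514% of all genes. A match describes these letters only. Of the textbook heat shock genes taken up below, Dnajb1 had an entry and no match, and Hsp90aa1 and Hspa8 had no entry. Members outside that list also held the 2-unit element, among them Dnajc10, Dnajc27, Hspb3 and Hspb6. The following elements belong to members that results above and below turn on, each with 5 flanking bases on the strand of the gene and the matching letters in capitals, at chr4:40722339-40722356 for Dnaja1, chr5:135887797-135887814 and chr5:135887817-135887834 for Hspb1, chr5:149636357-149636374 for Hsph1 and chr1:55088054-55088081 for Hspe1. Of the 250 bases before these starts, 218 are annotated as exons for Dnaja1, 0 for Hspb1, 61 for Hsph1 and 250 for Hspe1.
Dnaja1: ctctaGAAAATTCtacga
Hspb1, first: caagaGAAGTTTCcagat
Hspb1, second: gggcaGAACCTTCctggc
Hsph1: aatctTTCTCGAAggctc
Hspe1: gtccgTTCTAGAACCTTCCGGAAggccc

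The 10 genes of the textbook heat shock response, Hspa1a, Hspa1b, Hspa8, Hsph1, Hsp90aa1, Hspb1, Hspd1, Hspe1, Dnaja1 and Dnajb1, were called in both directions. In SB4 against SB2, 3 were called higher beside 27.8% of all genes, namely Hsph1, Hsp90aa1 and Dnaja1, and 2 lower beside 28.6%, namely Hspb1 and Hspe1. In BS6 against BS2, Hspb1 was called higher, 1 of 10 beside 29.0%, and the same 3 genes that had been higher in SB4 were called lower, beside 26.5%. Dnaja1, a partner of HSP70 in the cytosol, was at 103 to 129 CPM in SB2, 263 to 278 CPM in SB4, 257 to 276 CPM in BS2 and 85.4 to 88.1 CPM in BS6, with log2 fold changes of 1.23 ± 0.08 and -1.59 ± 0.09. Dnajb1, the HSP40 that joins HSP70 in heat-stressed cells, lay between 35.3 and 51.3 CPM in all 12 libraries, and its log2 fold changes of 0.24 ± 0.09 and -0.16 ± 0.11 did not pass the fold threshold. Of the heat shock factors that would act on these elements, Hsf1, Hsf2 and Hsf4 were not called in SB4 against SB2 or in BS6 against BS2 either. Hsf1 was at 43.8 to 51.5 CPM in SB2, 36.2 to 39.3 CPM in SB4, 31.3 to 36.4 CPM in BS2 and 38.2 to 44.3 CPM in BS6, and Hsf2 at 20.9 to 21.8, 30.6 to 35.9, 31.3 to 37.6 and 17.0 to 21.2 CPM. Hsf2 was thus above the bone-rich libraries in all 6 brain-rich ones (log2 fold changes of 0.66 ± 0.09 and -0.76 ± 0.14), and Hsf1 below SB2 in SB4 and above BS2 in BS6 (-0.30 ± 0.09 and 0.36 ± 0.11). Hsf4 was at 8.61 to 11.99, 13.7 to 20.1, 13.3 to 15.4 and 12.02 to 15.3 CPM in SB2, SB4, BS2 and BS6. Hsf3 reached at most 0.456 CPM and Hsf5 at most 1.003 CPM in a library.

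**Figure D3:**
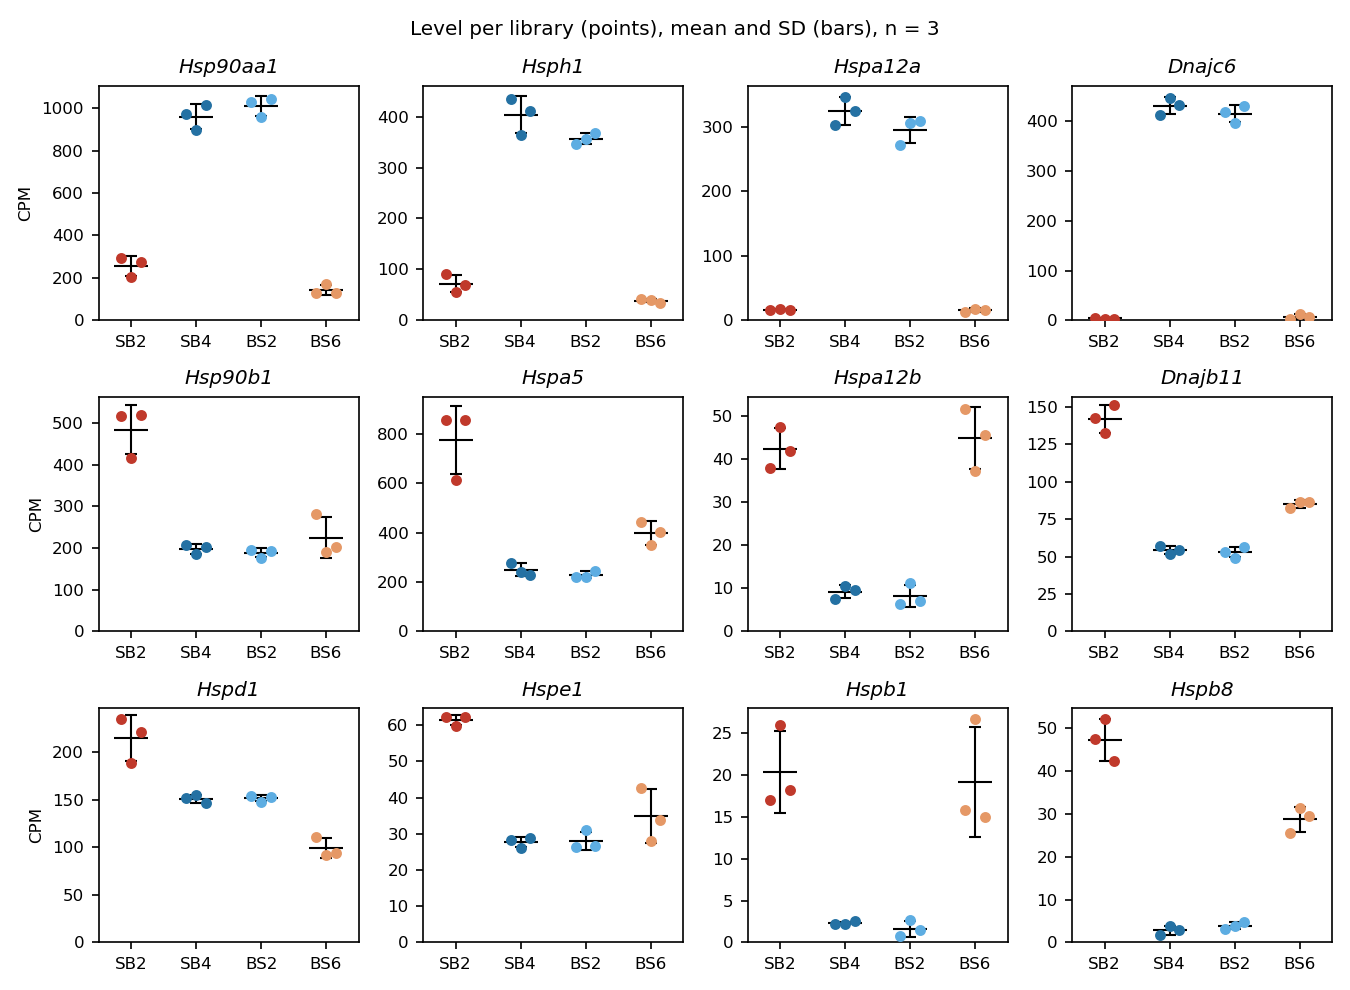
Level in CPM of 12 members, 1 panel for each, with a point for every library and bars for the mean and SD of the 3 libraries of a group; each vertical axis starts at 0. Hsp90aa1, Hsph1, Hspa12a and Dnajc6 (top row) are high in SB4 and BS2, the ER members and Hspa12b (middle row) are high in SB2, and Hspd1 is lowest in BS6.

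Of the members of the ER lumen, 7 of 8 had their highest mean in SB2. Hspa5, the ER HSP70 also called BiP (chr2:34771970-34777547), was at 853, 614 and 856 CPM in SB2, 279, 239 and 229 CPM in SB4, 219.5, 221 and 246 CPM in BS2 and 443, 348 and 404 CPM in BS6. The 3 libraries of SB2 were above all others and those of BS6 above all brain-rich ones. The log2 fold change was -1.63 ± 0.14 in SB4 against SB2 (edgeR adjusted p = 3.73e-06) and 0.84 ± 0.13 in BS6 against BS2 (edgeR adjusted p = 0.00098, under the fold threshold). Dnajb11, a DnaJ partner of Hspa5 in the ER, was at 132 to 151 CPM in SB2, 51.9 to 57.3 CPM in SB4, 49.3 to 56.3 CPM in BS2 and 82.4 to 86.6 CPM in BS6. Dnajc3, which is both a partner of Hspa5 and an inhibitor of the kinase PERK, was at 171 to 209.5 CPM in SB2, 60.5 to 63.5 CPM in SB4, 57.9 to 66.4 CPM in BS2 and 140.4 to 171 CPM in BS6. Of the 8 members of the ER lumen (Hspa5, Hspa13, Hsp90b1, Dnajb9, Dnajb11, Dnajc1, Dnajc3 and Dnajc10), 5 were called lower in SB4 than in SB2, beside 28.6% of all genes. In BS6 against BS2, 2 were called higher, a share below the 29.0% of all genes, Dnajc1 at 1.45 ± 0.17 and Dnajc3 at 1.38 ± 0.12. Dnajb9, known as a target of the unfolded protein response, lay between 38.1 and 52.5 CPM in all libraries, with log2 fold changes of 0.14 ± 0.09 and -0.24 ± 0.10.

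The ER stress element, spelled CCAAT, 9 free bases and CCACG, was searched on both strands of the same windows. It was found in 3 of 59 members (5.08%), Hspa5, Hsp90b1 and Dnajc3, and in 0.137% of all genes with an entry. These 3 genes had their highest mean in SB2, but so did Dnajb11, Dnajc1 and Dnajc10, which have an entry without a match. Hspa13, also highest in SB2, has no entry, and Dnajb9 has an entry without a match. Any part of the element in these levels was not tested. The matches are shown with the element in capitals, and in the second match of Hsp90b1 it stands on the opposite strand. They lie at chr2:34772020-34772048, chr10:86705633-86705661, chr10:86705528-86705556 and chr14:118937822-118937850 on GRCm38.p6, in this order, and begin 65, 212, 107 and 105 bases before the start in the RefSeq table.
Hspa5: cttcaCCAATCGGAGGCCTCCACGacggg
Hsp90b1, first: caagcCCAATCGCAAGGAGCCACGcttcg
Hsp90b1, second: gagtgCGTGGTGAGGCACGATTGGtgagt
Dnajc3: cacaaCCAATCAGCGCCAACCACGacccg

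In the mitochondria, the HSP60 gene Hspd1 and the HSP10 gene Hspe1, whose products form 1 folding chamber, did not keep a fixed proportion. Hspd1 (chr1:55077835-55088243) was at 235, 188 and 221 CPM in SB2, 151, 155 and 146 CPM in SB4, 154, 148 and 153 CPM in BS2 and 111, 91.6 and 93.9 CPM in BS6. SB2 was highest, both brain-rich groups lay together in the middle, and BS6 was lowest, without overlap between these 3 levels. Hspe1 (chr1:55088132-55091307) was at 62.4, 59.8 and 62.2 CPM in SB2, 28.3, 26.1 and 28.7 CPM in SB4, 26.4, 30.9 and 26.6 CPM in BS2 and 42.7, 28.1 and 33.9 CPM in BS6. The ratio of Hspe1 to Hspd1 was 0.288 ± 0.0267 in SB2, 0.184 ± 0.0143 in SB4, 0.185 ± 0.0213 in BS2 and 0.351 ± 0.0402 in BS6. Hspe1 was called lower in SB4 than in SB2 (-1.14 ± 0.08, edgeR adjusted p = 7.19e-08), whereas the log2 fold changes of Hspd1 were -0.51 ± 0.08 and -0.58 ± 0.11, under the fold threshold. The difference between both changes over days was -1.51 ± 0.19 for Hspe1 (edgeR adjusted p = 1.34e-05) and 0.06 ± 0.14 for Hspd1 (edgeR adjusted p = 0.688). The genes stand head to head on opposite strands with 112 bases in common. The element given above for Hspe1 lies within the annotated span of Hspd1, before 1 of its 2 starts in the RefSeq table, and since the use of strand in counting is not given in the sources used here, reads from the shared bases cannot be assigned. Among the other mitochondrial members, Hspa9, the mitochondrial HSP70, was at 252 to 278 CPM in SB2, 254 to 256 CPM in SB4, 250.4 to 271 CPM in BS2 and 144 to 160 CPM in BS6, and Dnajc15 was called higher in SB4 (1.01 ± 0.10) and lower in BS6 (-1.63 ± 0.14).

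The small heat shock proteins had wide ranges over the 12 libraries. Hspb1, known as HSP27 (chr5:135887919-135889563), was at 17.0, 26.0 and 18.2 CPM in SB2, 2.20, 2.23 and 2.51 CPM in SB4, 0.767, 2.63 and 1.52 CPM in BS2 and 15.8, 26.7 and 14.96 CPM in BS6. Hspb8, which works with the cochaperone Bag3 in chaperone-assisted autophagy, was at 47.4, 52.1 and 42.3 CPM in SB2, 1.84, 3.91 and 2.84 CPM in SB4, 3.13, 3.78 and 4.72 CPM in BS2 and 25.6, 31.3 and 29.4 CPM in BS6. Both were high in every bone-rich library, with log2 fold changes of -3.13 ± 0.20 and -4.01 ± 0.19 in SB4 against SB2 and of 3.59 ± 0.48 and 2.93 ± 0.19 in BS6 against BS2. Bag3 itself, not a member, was at 56.6 to 68.8 CPM in SB2, 4.24 to 5.04 CPM in SB4, 4.48 to 6.08 CPM in BS2 and 36.1 to 53.6 CPM in BS6.

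Hspb6 and Hspb7, small heat shock proteins of muscle, differed within the bone-rich groups. Hspb7 was at 38.6, 60.2 and 11.7 CPM in SB2 and 3.46, 6.76 and 13.6 CPM in BS6, and between 0.0726 and 0.354 CPM in the brain-rich libraries. Hspb6 was at 38.6, 46.8 and 13.7 CPM in SB2 and 6.85, 7.67 and 13.7 CPM in BS6, and between 1.79 and 2.55 CPM in the brain-rich ones. The sum of 7 matched skeletal muscle markers took the same order, at 2200, 2912 and 336 CPM in SB2 and 85.6, 128 and 672 CPM in BS6 against 14.5 to 16.5 CPM in the brain-rich libraries, where Tnnt3 was listed at 0 in 3 of 6 libraries. Replicate 3 of SB2 and replicate 3 of BS6 were close in Hspb6 and Hspb7, while their muscle sums were 336 and 672 CPM. The part of muscle RNA in the values of these genes was not tested. Within SB2, the 3 libraries had the same order in Hspb8 as in the muscle sum, and within BS6 they did not.

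**Figure D4:**
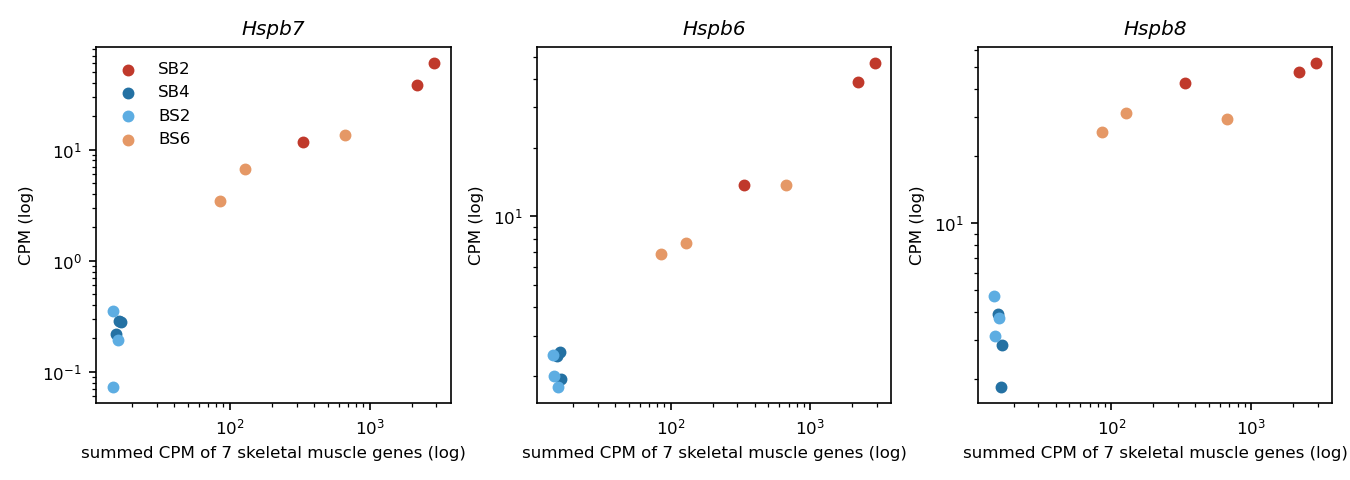
Level of Hspb7, Hspb6 and Hspb8 (vertical axes, CPM) against the summed level of 7 skeletal muscle markers (horizontal axes, CPM) in 12 libraries, on log axes, coloured by group. Hspb7 and Hspb6 are lowest in the brain-rich libraries, where the sum is at most 16.5 CPM, and highest in the library with a sum of 2912 CPM, and Hspb8 stays between 25.6 and 52.1 CPM over all 6 bone-rich libraries.

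Hspb3, another small heat shock protein of muscle, had the opposite pattern between bone-rich and brain-rich groups, at a low level. It held 185 counts over the 3 libraries of BS2 and 3 counts over those of BS6, a ratio of 63.4 after scaling (95% counting interval 21.3 to 310.0, which covers counting error only). In SB2 it held 49 counts, with 23, 22 and 4 in the libraries, and it was higher in SB4 by 1.27 ± 0.50 (edgeR adjusted p = 0.0389). Between the bone-rich groups, SB2 lay above BS6 by a ratio of 15.9 (95% counting interval 5.13 to 79.7), the direction of the means of Hspb6 and Hspb7. Hspb2 was at 0.427 to 1.60 CPM in SB2 and at most 0.279 CPM in the brain-rich libraries, and it shares 252 exonic bases with Cryab on the opposite strand, so its reads are uncertain. Hspb9 reached at most 1.27 CPM.

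Among the DnaJ genes with a known role in neurons, the difference was largest for Dnajc6, the brain form of auxilin that recruits Hspa8 to clathrin-coated vesicles (chr4:101496648-101642799). It was at 4.96, 3.73 and 3.85 CPM in SB2, 413, 447 and 433 CPM in SB4, 419, 396 and 431 CPM in BS2 and 2.93, 12.3 and 6.56 CPM in BS6. The brain-rich libraries were alike, and replicate 2 of BS6 was the highest of the bone-rich ones. The log2 fold change was 6.68 ± 0.11 in SB4 against SB2 (edgeR adjusted p = 1.37e-12) and -5.79 ± 0.54 in BS6 against BS2 (edgeR adjusted p = 0.000127). Dnajc5, the cysteine string protein of synaptic vesicles, was at 143 to 145 CPM in SB2 and 149 to 202 CPM in BS6 against 480.1 to 529 CPM in the brain-rich libraries. Dnajb2, an HSP40 enriched in neurons, was at 33.0 to 36.6 CPM in SB2, 80.5 to 92.6 CPM in SB4, 78.8 to 86.7 CPM in BS2 and 32.1 to 37.0 CPM in BS6. These 3 genes and Hspa12a were called higher in SB4 and lower in BS6, 4 of 4 in either comparison beside 27.8% and 26.5% of all genes, and they moved with the neuron marker sums given above.

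Other DnaJ genes were also divided by tissue content. Dnajb5 was at 18.4 to 26.5 CPM in SB2, 142 to 215 CPM in SB4, 172 to 180.4 CPM in BS2 and 17.0 to 19.2 CPM in BS6, and Dnajc27, a small GTPase with a J domain, at 17.5 to 22.2, 164 to 175, 153 to 168 and 14.1 to 17.0 CPM. Dnajc16, Dnajc18, Dnajc28, Dnajb14 and Dnaja4 were called higher in SB4 and lower in BS6, with absolute log2 fold changes from 1.30 to 1.76. Of the exons of Dnaja4, 1581 bases are shared with Wdr61 on the opposite strand, which held 5929 counts against its 4432, so its values are uncertain. A longer share, 1778 bases with Gm10501 on the opposite strand, was found for Hspa1l, which was also called higher in SB4 and lower in BS6. Gm10501 held 255 counts against 360 of Hspa1l, whose values are uncertain as well. Shorter shares with opposite genes were found for Dnajc14 (1114 bases with Ormdl2), Dnaja1 (608 with Smu1), Dnajc1 (749 with Mllt10) and Dnajc30 (436 with Bud23). In the other direction, Dnajc25 was at 25.1 to 31.9 CPM in SB2 and 13.7 to 22.5 CPM in BS6 against 4.68 to 6.25 CPM in the brain-rich libraries. Dnajb13, known from sperm and cilia, was at 1.28 to 2.22 CPM in SB2, 3.5 to 7.79 CPM in BS6 and at most 0.512 CPM in the brain-rich libraries, but it shares 305 exonic bases with Ucp2 on the opposite strand, which held 32782 counts in all against its 376. Dnajc8, a factor of splicing, lay between 93.0 and 119 CPM and Dnajb12, which sits in the ER membrane, between 36.6 and 47.3 CPM in all 12 libraries, and neither was called in any comparison. Dnajc12, known from the folding of aromatic amino acid hydroxylases, was at 4.79 to 11.7 CPM, with log2 fold changes of 0.64 ± 0.19 and -0.73 ± 0.21. The pseudogenes Hspe1-ps3 and Hspd1-ps4 stayed at or under 0.427 CPM, and Hspd1-ps3, at 1.83 to 5.35 CPM, may hold reads of Hspd1.

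Chaperones outside the symbol rule were read from lists by role. Of 16 genes of ER folding and the unfolded protein response, 11 were called lower in SB4 than in SB2 and 9 higher in BS6 than in BS2, beside 28.6% and 29.0% of all genes, with medians of -1.65 and 1.17. They include the disulfide isomerases P4hb (-3.97 ± 0.08 and 3.10 ± 0.21) and Pdia4 (-2.94 ± 0.11 and 1.88 ± 0.17), and the sensor gene Atf6 had the opposite sign (0.94 ± 0.06 and -0.86 ± 0.12). Of 13 HSP90 cochaperones 2 were called higher and 1 lower in SB4, and 2 higher and 3 lower in BS6, shares that all lay below those of all genes (27.8% and 28.6% in SB4, 29.0% and 26.5% in BS6). The gene lower in SB4 was Unc45b, the myosin chaperone of muscle (-3.67 ± 0.52). Of 13 regulators of HSP70 1 was called higher in SB4, Bag4 (2.63 ± 0.10), and 2 lower, Bag3 (-3.73 ± 0.12) and Sil1 (-1.48 ± 0.14), and the same 3 were called in the opposite direction in BS6, where Hspbp1 was lower as well. None of 14 subunits of the cytosolic chaperonin TRiC and of prefoldin was called in SB4 against SB2 by edgeR. By the adjusted p alone, 8 were lower, beside 42% of all genes, and 2 higher, beside 41.3%. In BS6 against BS2 1 was called, Pfdn2 (-1.06 ± 0.12). The collagen chaperone Serpinh1, known as HSP47, was at 2131 to 2397 CPM in SB2, 257 to 1478 CPM in BS6 and 5.66 to 9.61 CPM in the brain-rich libraries.

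To set groups of like tissue content side by side, BS6 was compared with SB2. As labelled, day, injury site and tissue differ together in this comparison and cannot be told apart. Among chaperones of the ER lumen and the mitochondria, 4 of 8 and 5 of 8 had an edgeR adjusted p under 0.05 with a lower level in BS6, but these counts were 0 without any of 5 of the 6 libraries. Of 67 members tested 2 were called lower, Hspd1 and Hsp90b1, 2.99% beside 0.741% of all 16329 genes tested, and 0 were called higher beside 1.11%, with 3 members (4.48%, beside 14.6% of all genes) at an unadjusted p under 0.05 in edgeR and 1 called higher by DESeq2, Dnajb13. The fold threshold decided most of this count: 13 members (19.4%) had an edgeR adjusted p under 0.05 with a lower level in BS6, beside 3.42% of all genes, and 0 with a higher level beside 2.28%. By the adjusted p of DESeq2 alone, 24 members were lower, beside 9.06% of all genes, and 2 were higher. The share of all genes higher by DESeq2 was not counted, by this rule or with the fold threshold. The 3 libraries of BS6 lay below the 3 of SB2 for 30 members (44.8%) beside 20.3% of all genes, and above them for 4 (5.97%) beside 17.8%. The median log2 fold change was -0.26 for members and 0.02 for all genes, and 16 of 67 values were above 0 beside 51.9% of all genes.

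Hspd1 was lower in BS6 by -1.10 ± 0.13 on the log2 scale (edgeR adjusted p = 0.0276) and Hsp90b1 by -1.09 ± 0.19 (edgeR adjusted p = 0.0365). In the ER, Hspa5 (-0.94 ± 0.18, edgeR adjusted p = 0.0418), Hspa13 (-0.76 ± 0.16) and Dnajb11 (-0.72 ± 0.09, edgeR adjusted p = 0.0293) were also lower, 4 of the 8 members of the lumen at an adjusted p under 0.05, whereas Dnajb9 was at -0.12 ± 0.13, Dnajc1 at -0.11 ± 0.17 and Dnajc3 at -0.28 ± 0.13. In the mitochondria, 5 of 8 members were lower by this measure, namely Hspd1, Hspe1 (-0.80 ± 0.16), Hspa9 (-0.78 ± 0.10), Dnajc15 (-0.76 ± 0.15) and Dnaja3 (-0.51 ± 0.09). All 8 members of either list had a value below 0. The remaining genes among the 13 were Hsph1 (-0.88 ± 0.19), Hspb8 (-0.70 ± 0.13), Hspa4 (-0.59 ± 0.10) and Dnajc21, a factor of ribosome assembly (-0.59 ± 0.11). By contrast Hspb1 (-0.07 ± 0.29), Hspa12b (0.10 ± 0.15), Hspa12a (-0.02 ± 0.17) and Dnajb2 (0.01 ± 0.10) differed by less than their standard errors. Hsp90aa1 had a value of -0.82 ± 0.19, with libraries that did not overlap and an edgeR adjusted p of 0.0582.

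Outside the members, 3 of the 16 genes of ER folding were called lower in BS6, beside 0.741% of all genes. They were Pdia4 (-1.25 ± 0.19), Pdia6 (-1.13 ± 0.14) and Calr (-1.03 ± 0.15). By the adjusted p alone 7 were lower, beside 3.42% of all genes. Leaving out SB2 replicate 1, 2 or 3 gave 0 genes lower by this measure among all genes tested, and leaving out BS6 replicate 1 or 3 gave 17 (0.102%). The unfolded protein response genes Xbp1 (-0.23 ± 0.14), Atf4 (-0.28 ± 0.11), Ddit3 (0.17 ± 0.12) and Herpud1 (-0.16 ± 0.12) were not called. Of the 14 TRiC and prefoldin subunits 6 were lower by the adjusted p alone, beside 3.42% of all genes, with Cct6a (-0.91 ± 0.12) and Cct3 (-0.89 ± 0.12) at the lower end. This count was also 0 without SB2 replicate 1, 2 or 3. Of the cell type markers, edgeR called 0 of 6 for osteoblasts and osteocytes, 0 of 4 erythroid and 0 of 5 neutrophil genes, while 2, 4 and 5 of them had an unadjusted p under 0.05 and DESeq2 called the same numbers. Called by edgeR were 2 of 4 smooth muscle markers, Myh11 higher (1.22 ± 0.17) and Acta2 lower (-1.09 ± 0.15), and 1 of 8 neuronal markers, Tubb3, lower (-1.14 ± 0.23). Of 7 skeletal muscle markers edgeR called 0, with 4 at an unadjusted p under 0.05 and 3 called by DESeq2. Among 4 B cell, 6 proliferation and 5 endothelial markers edgeR called 0, while 3, 3 and 2 had an unadjusted p under 0.05, and DESeq2 called 2, 0 and 0. The B cell sum of 4 markers was 17.3, 27.4 and 23.6 CPM in SB2 and 37.3, 28.1 and 60.7 CPM in BS6. The osteoblast and osteocyte sum was 4826, 3321 and 5292 CPM in SB2 and 1707, 1192 and 2820 CPM in BS6, the erythroid sum of 4 markers 1261, 4566 and 1433 CPM against 8138, 12537 and 7540 CPM, and the neutrophil sum of 5 markers 1138, 1476 and 826 CPM against 1347, 23433 and 3237 CPM. Ibsp, a matrix protein of bone, carried most of the osteoblast and osteocyte sum (mean of 3215 CPM in SB2 and 873 CPM in BS6), while Sp7 was at 285 and 255 CPM and Phex at 30.9 and 63.8 CPM. The neutrophil sums overlapped between the groups. The part of these cells in the levels of the chaperones was not tested.

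These counts depended on which library was left out. Without SB2 replicate 1, 2 or 3 or BS6 replicate 1 or 3, edgeR gave 0 members with an adjusted p under 0.05 at a lower level in place of 13, beside at most 0.102% of all genes. Without BS6 replicate 2 there were 22, among them 5 of the ER lumen and 6 of the mitochondria, beside 11.3% of all genes. With the fold threshold, leaving out any of the 6 libraries gave 0 or 1 called lower. Without BS6 replicate 2, the library that stood apart, Hspd1 was called lower (-1.06, edgeR adjusted p = 0.00199), Hsp90b1 had a value of -0.99 (edgeR adjusted p = 0.00986), just under the fold threshold, and Dnajb13 was called higher (1.36, edgeR adjusted p = 0.0236). Without any of the other 5 libraries the count was 0, and Hspd1 kept values from -1.20 to -1.04 with edgeR adjusted p from 0.0534 to 0.181.

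**Figure D5:**
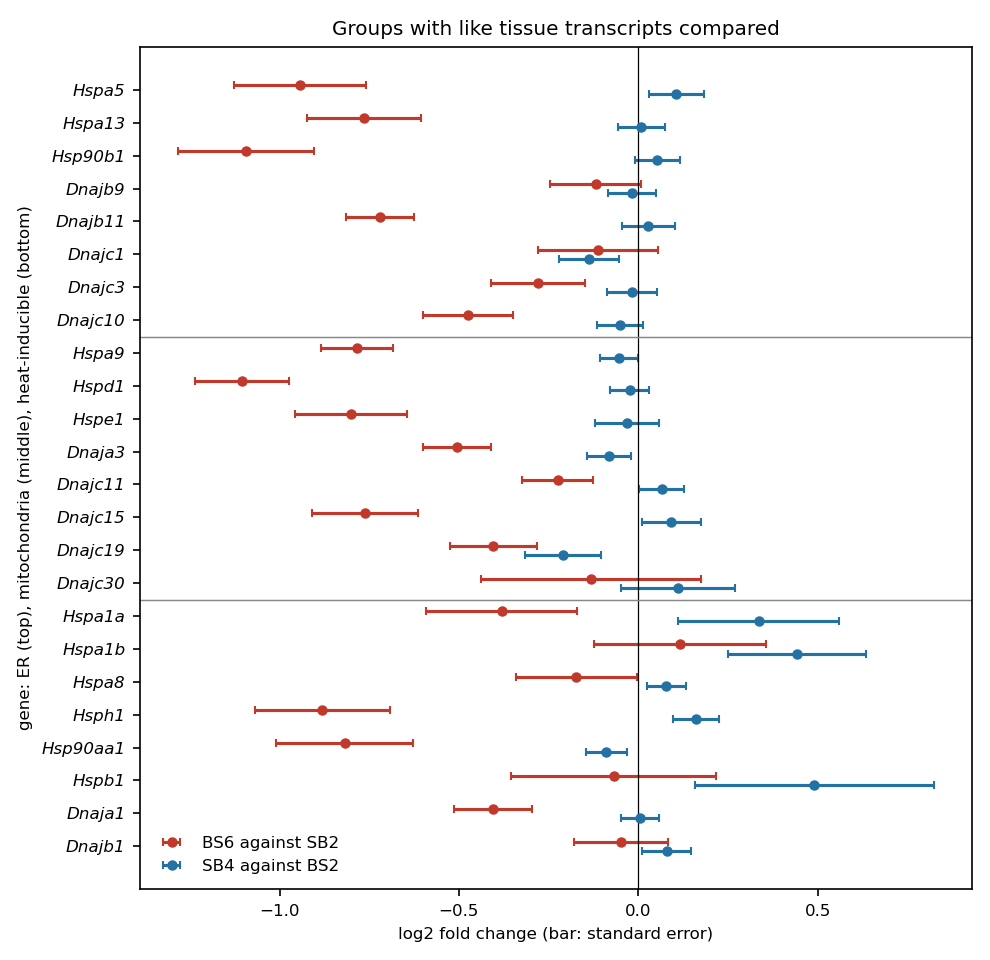
Log2 fold change with its standard error for the members of the ER lumen (top), the mitochondria (middle) and the remaining heat-inducible members (bottom), in BS6 against SB2 (red, bone-rich groups) and SB4 against BS2 (blue, brain-rich groups). All 16 members of the upper lists lie below 0 in BS6 against SB2, from -1.10 to -0.11, while in SB4 against BS2 their values lie between -0.21 and 0.11.

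The brain-rich groups, SB4 and BS2, differed little in these genes. Of 68 members tested edgeR called 0 higher, beside 0.0860% of all 16278 genes tested, and 0 lower, beside 0.0614%. At an unadjusted p under 0.05 there were 2 higher (2.94%, beside 6.32% of all genes) and 5 lower (7.35%, beside 5.56%), and DESeq2 also called 0. The libraries of SB4 lay above those of BS2 for 3 members (4.41%, beside 10% of all genes) and below them for 6 (8.82%, beside 6.51%). The 68 values had a median of -0.02 and ranged from -0.86 to 0.49, with a median standard error of 0.08, and 2 of them exceeded 0.5 in either direction, Hsf5 and Hspb3, both at low counts. Hspa1a (0.34 ± 0.22) and Hspa1b (0.44 ± 0.19) were among the 3 members with libraries of SB4 above those of BS2, the third being Dnajc30, and their edgeR adjusted p were 0.598 and 0.364. The sum of 8 immediate early genes, which respond within minutes to stimulation, was 752, 447 and 734 CPM in SB4 and 388, 385 and 384 CPM in BS2. Egr1 held most of it, at a mean of 403 CPM in SB4 and 240.4 CPM in BS2, the means of Jun were 40.4 CPM in SB4 and 46.5 CPM in BS2, and edgeR called 1 of the 7 genes tested, Ier2. The sum's relation to Hspa1a and Hspa1b was not tested.

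Both late groups were also set against both early groups over all 12 libraries, a contrast with 1 bone-rich and 1 brain-rich group on either side. Of 71 members tested 1 was called lower late, Hspb3 (-2.26 ± 0.49, edgeR adjusted p = 0.0215), 1.41% beside 0.249% of all 18068 genes tested, and 0 were called higher beside 0.659%, with 3 (4.23%, beside 14.3% of all genes) at an unadjusted p under 0.05 and 0 called by DESeq2. The call of Hspb3 rests on the 3 counts of BS6 given above. Without SB2 replicate 1, SB4 replicate 1 or 2, or BS2 replicate 1 or 2, 0 members were called lower, and without SB2 replicate 3 there were 2. At any fold change, 18 members (25.4%) had an edgeR adjusted p under 0.05 with a lower level late beside 4.35% of all genes, and 1 (1.41%), Dnajc7, with a higher level beside 4.23%. The 18 include Hspd1 (-0.55 ± 0.07, edgeR adjusted p = 0.00316) and Hspa9 (-0.40 ± 0.05, edgeR adjusted p = 0.00332). With 1 library left out this count of 18 ranged from 6 to 24, beside 1.66% to 8.39% of all genes. It was 6 to 8, beside 1.66% to 2.55% of all genes, without SB2 replicate 1 or without any library of SB4 or BS2, and 11, beside 2.72%, without SB2 replicate 3. This contrast shares its libraries with both comparisons between groups of like content and is not separate evidence.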

How the data were processed

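Poly(A) RNA of 12 libraries in 4 groups was analysed, and samples were grouped by the tissue and day in their labels. The authors deposited raw counts per gene symbol for 22317 symbols, and the submitters' processing notes name HISAT2 2.1.0 and the build mm10. The counting program, the use of strand and whether the counts precede a batch adjustment are not given in the sources used here. Levels are CPM with TMM factors over 12 libraries. Each comparison used the 6 libraries of its groups, and the late and early days and the difference between both changes were contrasts over 12 libraries. Genes passed filterByExpr (min.count 10), and edgeR 4.0.16 in R 4.3.3 gave the robust quasi-likelihood test with Benjamini-Hochberg adjustment over all genes tested, with DESeq2 1.42.0 as an alternative. Standard errors were derived from F, as the size of the log2 fold change over its square root. The fitting scripts were tested on simulated data. Named genes were a panel by role plus up to 4 called members in each direction that reached 5 CPM in the mean of the group with more, and members named beyond these were chosen after their values were seen. The members and lists were chosen with earlier results of these data known. Of 76 members 71 passed the filter over 12 libraries. Other alternatives were RLE and upper-quartile factors, library totals, other filters, a replicate block, 1 fit of 12 libraries and leaving out each library. Promoters come from RefSeq (GRCm38.p6), gene positions and exon lengths from GENCODE M21.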

Additional observations from a re-analysis of the deposited data

Results flagged for a closer look

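The changes over days differed between the labels for 26 of 32 named members, by edgeR's quasi-likelihood test of the difference itself over all 12 libraries, with an absolute log2 difference over 1. Hspb7, Dnajc27 and Dnajb13 were named because they were called in SB4 against SB2 or in BS6 against BS2, so this count cannot be read as a share. Over all genes 35.8% had a called positive difference and 37.8% a negative one, and over the 71 members tested 32 (45.1%) and 21 (29.6%). A positive value means that the signed log2 fold change in SB4 against SB2 lies above that in BS6 against BS2, and it does not compare their sizes. Both changes run between bone-rich and brain-rich libraries in opposite directions.

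The negative differences among the named members, 11 in all, were led by small heat shock proteins, with log2 values of -12.31 for Hspb7, -6.97 for Hspb8, -6.73 for Hspb1 and -6.05 for Hspb6. Hspb7 held 1 to 6 counts in each brain-rich library and did not pass the filter in SB4 against BS2. The size of its value and its place here therefore rest on few counts. Dnajb13 had -6.60, with the reservation about Ucp2 given above, and Hspa12b -4.69. The members of the ER lumen had -3.03 (Dnajc3), -2.48 (Hspa5), -2.11 (Dnajb11) and -1.59 (Hsp90b1), and the mitochondrial Hspe1 had -1.51.

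The positive differences, 15 in all, were led by Dnajc6 with 12.46 and Hspa12a with 8.48. They were followed by Hspa4l with 6.68, Dnajc27 with 6.46, Dnajb5 with 6.21, Hsph1 with 5.63, Hsp90aa1 with 4.66 and Dnajc5 with 3.31. Smaller values were found for Dnaja1 (2.81), Dnajb2 (2.54), Hspa2 (2.47), Hspa8 (1.71), Hsp90ab1 (1.42), Hsf2 (1.41) and Dnajc12 (1.36). The part of the day in these differences cannot be told apart from that of tissue content.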

How the results depend on the processing

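Of 190 log2 fold changes of named members 32 changed sign under an alternative, 13 of them in SB4 against BS2 and 8 in BS6 against SB2. All 32 were at most 0.12 in size, and 0 had an adjusted p under 0.05 in edgeR as reported. No called value changed sign. With the adjusted p alone as the rule, 35 members were higher and 24 lower in SB4 against SB2, 18 were higher in BS6 against BS2, 13 were lower in BS6 against SB2, and 1 was higher and 18 lower late. In BS6 against SB2, the 0 called higher became 1 (Dnajb13) with upper-quartile factors (1.70), DESeq2 (1.73) and a fit of all 12 libraries (1.75), and 0 to 1 with 1 library left out. The 2 called lower became 3 with library totals only, 4 with DESeq2, 5 in the fit of all 12 libraries, 0 with the replicate block and 0 to 1 with 1 library left out. For these settings the share of all genes is given for the adjusted p alone, below, and with library totals only it was 4% against 3.42% as reported. The 1 called lower late became 0 with at least 10 counts in every library, and 0 to 2 with 1 library left out. Chosen after seeing the data, the adjusted p alone was also combined with the other settings. The 13 lower in BS6 against SB2, beside 3.42% of all genes, became 24 with DESeq2 (beside 9.06%) and 28 in the fit of all 12 libraries (beside 10.6%). They became 0 with the replicate block (beside 0%) and 0 to 22 with 1 library left out (beside 0% to 11.3%). The 18 lower late, beside 4.35% of all genes, became 6 to 24 with 1 library left out (beside 1.66% to 8.39%). The cause of these shifts was not tested beyond the smaller number of libraries or genes that an alternative itself leaves. Same-numbered libraries correlated between -0.0912 and 0.0624 in their deviations, none of the pairs above 0.1, so the numbers were not taken to pair the samples. With the replicate block, 18 members were called higher and 15 lower in SB4 against SB2, and 9 and 24 in BS6 against BS2. The share of all genes called was not counted under the block. As reported, it was 27.8% higher and 28.6% lower in SB4 against SB2, and 29.0% and 26.5% in BS6 against BS2. Under the block, Hspd1 (-1.10) and Hsp90b1 (-1.11) had an edgeR adjusted p of 0.0995 in BS6 against SB2. Summed, Hspa1a and Hspa1b had a log2 fold change of 0.49 in BS6 against BS2 (edgeR adjusted p = 0.0469). The median of all genes in SB4 against SB2 was -0.01 with TMM, -0.11 with library totals and -0.14 with upper-quartile factors. Members near 1 CPM, such as Hsf5, rest on few counts.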
